A study of Sus scrofa with 2 samples.

Results

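Regions with many reads from pig fetal fibroblasts (pFF) and almost none from pig embryonic germ cells (pEGC) are described here. The reads of both libraries were pooled, read starts within 200 bases of each other were joined into a region, and regions with at least 20 pooled reads were kept. A block near the start of chromosome 6, ending at 260000, was left out. Members were chosen by width and by measured reads: a region had to be over 150 and under 5000 bases wide, with at least 50 pFF reads and at most 3 pEGC reads. The rule chose 699 regions, called fibroblast-restricted regions below, out of 75532 outside the block and 75535 in all. The reads of both libraries chose these regions, so their excess in pFF is a description and not a finding.

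The study sequenced poly(A) RNA from 2 cultures of pig embryonic cells, with 1 library per culture. Embryos came from Danish Landrace sows mated with Yorkshire boars and were taken between days 17 and 24 of gestation, and the series title calls them mini pig embryos. The pEGC culture was grown from hindguts, or at later stages from mesonephros with the genital ridge, on mitomycin C-inactivated STO feeder cells, a mouse fibroblast line, with LIF and SCF at 10 ng/ml each and bFGF at 3 ng/ml. The pFF library carries the label of embryonic fetal fibroblasts, and the growth text of its label is that of the germ cell culture, so the culture of the fibroblasts is not described. The colonies were freed of somatic and feeder cells by collagenase and filtering and then moved to fresh feeders; how many such cells were left in the sample was not tested here. The series text ascribes pluripotency and self-renewal to both cultures, and no specific treatment is named for either. In a bulk library, fewer cells of a type and less RNA per cell cannot be told apart. Genes could not be named, so neither cell type was checked against marker genes.

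Fibroblasts are the connective tissue cells that make collagens, fibronectin and other parts of the extracellular matrix. Embryonic germ cells are grown from primordial germ cells, the migrating precursors of sperm and eggs. Most genes of mammals are split into exons that are joined in the mature RNA. Reads placed without gaps fall inside single exons, so a spliced transcript shows up on the genome as a row of short separate regions, while a long last exon or an unspliced transcript gives 1 wider region. The protocol names no step that keeps the strand, so a read on strand F or R tells which end of a cDNA fragment was read and not which strand was transcribed.

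Both files hold the same number of aligned reads, 14324517 of 34 bases. Whether they were cut to an equal number before deposit is not given in the sources, so this number may not be the sequencing depth, and depth below means reads in the files. The block on chromosome 6 held 30.6% of the reads in pFF but 11.5% in pEGC, which left 9942279 pFF reads and 12682180 pEGC reads elsewhere. The pEGC library was thus the deeper of the pair outside the block. Levels are given as RPM, a region's reads per 1000000 of the library's reads in regions, with those of the block included. These totals were 13672805 reads in pFF and 12910575 in pEGC, and 3 reads are 0.219 RPM in pFF and 0.232 RPM in pEGC. Intervals below are exact 95% intervals (Clopper-Pearson) and cover counting error only. They treat reads as independent, but identical reads may be copies of 1 molecule, so the intervals may be too narrow. With 1 library per culture there is no replicate check, and no p-value is given.

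Fibroblast-restricted regions were mostly short and of modest depth. They held 114287 pFF reads, which is 0.836% of the pFF reads in regions (0.831 to 0.841), and 752 pEGC reads, which is 0.00582% (0.00542 to 0.00626). The median region had 95 pFF reads, or 6.95 RPM, and the highest had 2464. There were 368 regions below 100 pFF reads, 181 from 100 to below 200, 116 from 200 to below 500, 26 from 500 to below 1000 and 8 at 1000 or more. Widths ran from 152 to 4229 bases with a median of 678. The 17273 other regions within the same limits of width and pFF reads had a median width of 1409 bases, and the 1254 of these that were at least 4-fold higher in pFF had one of 917.5 bases. The median number of pFF reads in these sets was 113 and 190. Per length, the median fibroblast-restricted region had 11.4 RPM per kb in pFF, against 8.08 RPM per kb in the other regions and 18.1 RPM per kb in those 4-fold higher in pFF. The limit on pEGC reads is a count and takes no account of width.

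**Figure D1:**
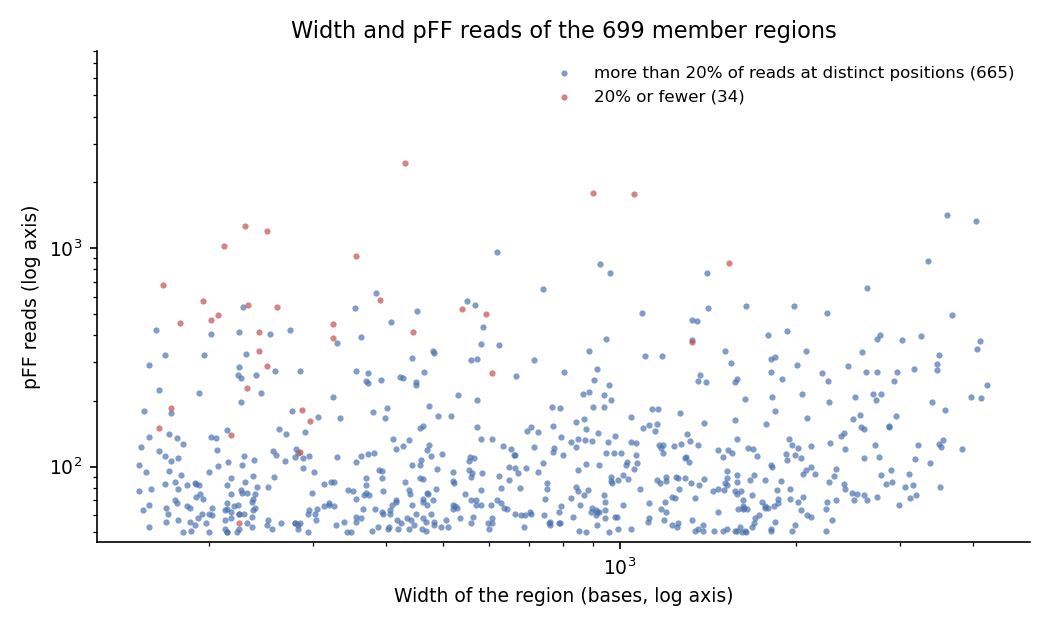
Each point is 1 of the 699 fibroblast-restricted regions, by its width in bases and its number of pFF reads, both on log axes. Red points are the 34 regions in which 20% or fewer of the pFF reads had a distinct position and strand; many of them are narrow and deep, and the highest has 2464 reads.

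The word "only" holds to a varying degree. No pEGC read fell in 277 of the 699 regions, while 193 had 1 read, 128 had 2 and 101 had 3. For the 277 regions with no pEGC read, a floor of 3 reads bounds the fold: they were at least 15.7-fold to at least 302-fold higher in pFF, with a median bound of 25.8. For the other 422 regions the ratio ran from 15.7 to 1669 with a median of 67.0. All 699 also met the 4-fold rule used for the whole series (at least 4-fold in RPM, 50 reads or more where it is higher, and an interval beyond 2-fold), which 3.05% of all 75532 regions and 10.9% of the 17972 regions within the limits of width and pFF reads met in the direction of pFF. The choice of the members fixes this count.

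Regions lay close to each limit on both of its sides. Inside the limit on pFF reads, 61 regions had 50 to 54 reads and a median ratio of 24.1, and 88 regions with 45 to 49 reads fell just outside it, with a median ratio of 15.1. Inside the limit on pEGC reads, 101 regions had 3 reads and a median ratio of 36.2, and 74 regions with 4 reads lay just outside, with a median ratio of 26.4. The lower limit on width left out 127 regions that met both limits on reads, with a median width of 120 bases and up to 1926 pFF reads. Of these 127 narrower regions, 95 lay within 20 kb of a fibroblast-restricted region. The upper limit left out 1 region, of 5562 bases.

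The deepest fibroblast-restricted regions differed in shape. Broad ones included chromosome 15 from 41637891 to 41641495, with 1412 pFF reads and 2 pEGC reads over 3605 bases (103 RPM against 0.155 RPM, 667-fold, 184 to 5510). A second, on chromosome 6 from 62570092 to 62574135, had 1336 pFF reads and 3 pEGC reads over 4044 bases (421-fold, 144 to 2042). Reads covered 91.4% and 93.1% of their bases, and their strands were balanced, with 48.7% and 51.0% of reads on strand F.

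Narrow and deep ones included chromosome 15 from 118246621 to 118246850, with 1264 pFF reads and 3 pEGC reads over 230 bases (398-fold, 136 to 1932). The narrow region on chromosome 2 from 52212602 to 52212852 had 1203 pFF reads and 2 pEGC reads over 251 bases (568-fold, 157 to 4695). Of their pFF reads, 14.7% and 9.81% had a distinct position and strand, so most reads there repeat a position already seen. A narrow region offers few positions, so a high share was out of reach at this depth. Whether these reads are copies was not tested. A region of middle width on chromosome 6, from 20820978 to 20821878, had 1791 pFF reads and 3 pEGC reads over 901 bases (564-fold, 193 to 2736), with 17.1% at distinct positions. Counted once per position and strand, the log2 ratio was 6.57 in place of 8.64 in the chromosome 15 region, 6.50 in place of 9.15 in the chromosome 2 region and 7.29 in place of 9.14 in the chromosome 6 region. Few pEGC reads can be lost this way, while the positions of a narrow region cap the pFF count. All ratios counted once per position were scaled to each library's total counted in the same way. This change of scale raised them, so the part lost to repeated pFF positions is larger than they show.

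A pair of regions on chromosome 5 had reads almost wholly on 1 strand each. From 54974469 to 54974899 there were 2464 pFF reads and 3 pEGC reads, the most of any fibroblast-restricted region, and 99.9% of the pFF reads were on strand F. From 54976337 to 54977392 there were 1768 pFF reads and 1 pEGC read, and 94.4% of the pFF reads were on strand R. Only 64 and 76 distinct positions carried these reads, 2.60% and 4.30% of them. A further region, from 54977627 to 54978993, followed at once with 1352 pFF reads and 8 pEGC reads. It had 43.0% of its reads on strand F and was 160-fold higher in pFF (80.8 to 370), and its 8 pEGC reads kept it outside the rule. With each position and strand counted once, the log2 ratio of pFF over pEGC was 5.03 in place of 9.60 in the strand F region and 6.86 in place of 10.71 in the strand R region.

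Among regions without any pEGC read, the deepest was on chromosome 1 from 252297294 to 252297912, with 961 pFF reads over 619 bases, at least 302-fold higher in pFF. Next came chromosome 1 from 128709917 to 128710271, with 921 pFF reads over 355 bases (at least 290-fold). A region of 385 bases on chromosome 18, from 49596532 to 49596916, had 626 pFF reads (at least 197-fold). On chromosome 11, 195 bases from 12881744 to 12881938 had 571 pFF reads (at least 180-fold), 93.5% of them on strand F. The last of these 5, on chromosome 4 from 40905877 to 40907517, had 545 pFF reads over 1641 bases (at least 172-fold) and no other region within 20 kb. These bounds were lower when each position and strand was counted once: the log2 ratio was 4.65 in place of 7.49 in the chromosome 11 region, 6.51 in place of 8.18 in the chromosome 1 region at 128709917 and 6.59 in place of 7.62 in the chromosome 18 region. In the chromosome 1 region at 252297294 it was 7.42 in place of 8.24, and in the chromosome 4 region 6.90 in place of 7.42.

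On most other chromosomes the deepest fibroblast-restricted region was less abundant. The highest count was 873 on chromosome 8 (40827445 to 40830792, 1 pEGC read), 851 on chromosome 9 (45215153 to 45216688, 3 pEGC reads), 846 on chromosome 14 (9124818 to 9125741, 3 pEGC reads) and 769 on chromosome 4 (88065255 to 88066665, 3 pEGC reads). It was 546 on chromosome 16 (46964210 to 46966192, 3 pEGC reads), 533 on chromosome 3 (37452923 to 37453276, 2 pEGC reads), 503 on chromosome 17 (48432556 to 48434812, 2 pEGC reads) and 495 on chromosome 13 (72272187 to 72275867, 1 pEGC read). The lowest of these leading counts were 392 on chromosome 10 (44125971 to 44126332, 2 pEGC reads), 345 on the X chromosome (98812041 to 98816108, 1 pEGC read), 229 on chromosome 12 (53773382 to 53773613, 0 pEGC reads) and 197 on chromosome 7 (126113784 to 126117184, 3 pEGC reads). The X chromosome region spread its reads over 4068 bases, and the one on chromosome 12 held its reads in 232 bases. Counted once per position and strand, the log2 ratio was 5.37 in place of 8.07 in the chromosome 9 region and 3.94 in place of 6.17 in the chromosome 12 region.

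The extremes of width differed in density. The widest regions were chromosome 11 from 29603092 to 29607320 (4229 bases, 237 pFF and 3 pEGC reads), chromosome 14 from 139773532 to 139777651 (4120 bases, 206 and 3 reads) and chromosome 14 from 67554303 to 67558414 (4112 bases, 375 and 0 reads). They had at most 91.2 pFF reads per kb. The narrowest were chromosome 10 from 44167728 to 44167879 (152 bases, 102 and 0 reads), chromosome 13 from 8053495 to 8053646 (152 bases, 77 and 1 reads) and chromosome 11 from 5212434 to 5212586 (153 bases, 123 and 0 reads), with 671, 507 and 804 pFF reads per kb. At the top of that scale stood the strand F region on chromosome 5 with 5717 reads per kb and the chromosome 15 region at 118246621 with 5496. Next came 128771340 on chromosome 1 with 4825, 52212602 on chromosome 2 with 4793 and 128729410 on chromosome 1 with 4078. The 2 on chromosome 1 belong to the largest locus there.

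Many fibroblast-restricted regions lay near another. Joined where they were within 20 kb of each other, the 699 regions formed 405 loci. Of these, 300 loci held 1 region, 82 held 2 to 4 and 23 held 5 or more. The 23 larger loci held 195 regions (27.9%) and 33.6% of the pFF reads in fibroblast-restricted regions. Regions of 1 locus may be exons of 1 transcript and are not independent of each other.

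On chromosome 1, from 128655708 to 128774690, lay the locus with the largest number of them. It held 26 fibroblast-restricted regions with 140 to 1023 pFF reads each (median 422.5), and 6 of them had no pEGC read. The deepest, from 128771340 to 128771551, had 1023 pFF reads and 2 pEGC reads, with a log2 ratio of 8.92, or 6.29 with each position and strand counted once. The summed pFF level of the 26 was 863 RPM, against a pEGC level of 2.79 RPM (309-fold, 223 to 442), and they held 10.3% of all pFF reads in fibroblast-restricted regions. They were short, with a median width of 267.5 bases, and stood apart, with a median gap of 3419 bases, so that they covered 11.0% of the 119 kb. Between them lay 27 further regions with 16622 pFF reads and 111 pEGC reads, of which 25 were 4-fold higher in pFF. Of the 27, 14 were too narrow for the rule, at 119 to 144 bases, 16 had more than 3 pEGC reads, up to 11, and 2 had fewer than 50 pFF reads. The row of regions ended sharply. From 128780953 to 128782630, 6.26 kb past the last fibroblast-restricted region, there were 3312 pEGC reads and 24 pFF reads, so this region was 146-fold higher in pEGC (98.0 to 228). All 3 regions within 20 kb of the locus were 4-fold higher in pEGC, with 3909 pEGC reads and 38 pFF reads in sum.

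The second locus by number, also on chromosome 1, from 81712631 to 81774796, held 18 regions with 57 to 244 pFF reads each, of which 8 had no pEGC read. Their summed pFF level was 137 RPM and their pEGC level 1.01 RPM (136-fold, 79.2 to 255). Their median width was 255 bases and their widest had 520 bases, and no other region lay within 20 kb on either side. Between them lay 8 further regions with 770 pFF reads and 3 pEGC reads, of which 5 were 4-fold higher in pFF.

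A locus of 13 regions on chromosome 16, from 63446681 to 63476589, reached 161 RPM for pFF against 0.620 for pEGC (260-fold, 132 to 603). Its regions were wider and closer, with a median width of 530 bases and a median gap of 1640.5 bases, and covered 34.2% of the 29.9 kb. Within 20 kb on its sides lay 10 further regions with 5311 pFF reads and 39 pEGC reads. The deepest, from 63494088 to 63500869, had 4523 pFF and 33 pEGC reads (331 RPM against 2.56 RPM, 129-fold). The 12 regions of a locus on chromosome 10, from 44157394 to 44215992, reached 143 RPM for pFF against 0.620 for pEGC (230-fold, 117 to 534). Beside this locus, within 20 kb, lay 3 further regions with 7112 pFF reads and 43 pEGC reads. The deepest, from 44229671 to 44233640, had 5933 pFF and 30 pEGC reads (434 RPM against 2.32 RPM, 187-fold). A locus of 11 regions on chromosome 1, from 252343367 to 252382212, reached 178 RPM for pFF against 0.852 for pEGC (209-fold, 117 to 420).

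On either side of the last locus lay further fibroblast-restricted regions, and with a join distance of 50 kb, chosen after these values were seen, 15 regions from 252297294 to 252425452 came together over 128 kb. They had 4375 pFF reads and 16 pEGC reads. Among them lay a much deeper region from 252417004 to 252418198, with 7764 pFF reads and 59 pEGC reads (568 RPM against 4.57 RPM, 124-fold, 96.2 to 163). This region had more pFF reads than any fibroblast-restricted region, and its pEGC reads kept it outside the rule.

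By number of reads, the pair on chromosome 5 came second with 4232 pFF reads and 4 pEGC reads (310 RPM against 0.310 RPM, with an interval of the ratio from 390 to 3668), after the locus of 26 regions. The locus of 11 regions on chromosome 1 came next. On chromosome 6, 7 regions from 20820978 to 20848774 reached 176 RPM for pFF against 1.01 for pEGC (175-fold, 102 to 329), and 1791 of the 2408 pFF reads belonged to a single region. On chromosome 11, 9 regions from 12851779 to 12881938 reached 162 RPM for pFF against 0.852 for pEGC (190-fold, 106 to 382), with 75 to 571 pFF reads each.

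**Figure D2:**
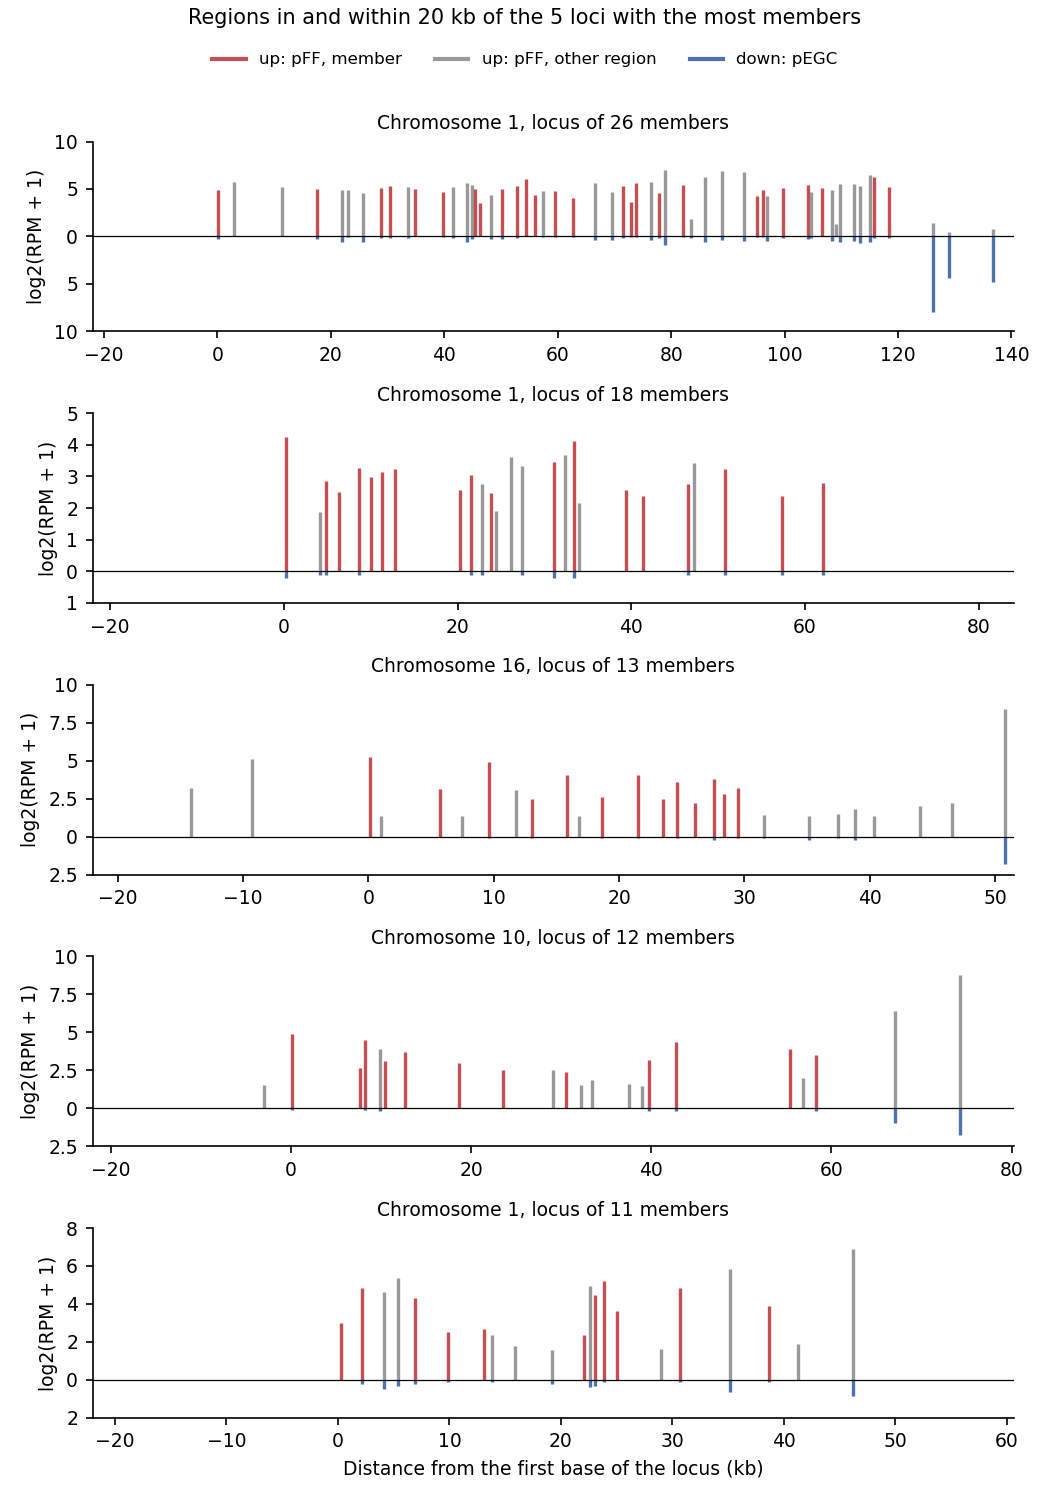
Members in the plot are the fibroblast-restricted regions; each line is 1 region in or within 20 kb of the 5 loci with the most fibroblast-restricted regions, placed by the distance of its centre from the start of the locus in kb; pFF levels point up and pEGC levels point down, both as log2(RPM + 1). Almost all regions inside the loci have pFF signal and hardly any pEGC signal, and beyond the right end of the locus of 26 regions 3 regions have the opposite pattern.

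The rule did not use the other regions nearby, although these come from the same libraries and may belong to the same transcripts. Of the 699 fibroblast-restricted regions, 348 (49.8%) had within 20 kb another region that did not meet the rule but was 4-fold higher in pFF, against 9.22% of the 17273 other regions within the limits of width and pFF reads. Among the 1254 of these that were themselves 4-fold higher in pFF the share was larger, 811 (64.7%). A region 4-fold higher in pEGC lay that near 18 fibroblast-restricted regions (2.58%), against 18.3% of the other regions and 39 (3.11%) of those 4-fold higher in pFF. With the block left out of the totals, 50.2% had a neighbour higher in pFF, against 12.1% of the other regions, and 11 had one higher in pEGC, against 12.8%. Another 206 had non-qualifying regions near them with no 4-fold call, 42 had fibroblast-restricted regions alone, and 98 had no region at all. Another fibroblast-restricted region lay within 20 kb of 399 (57.1%), and a fibroblast-restricted region lay that near 2.39% of the other regions and 24.5% of those 4-fold higher in pFF. Where there were other regions, their summed reads were higher in pFF for 505 of 559 (90.3%), against 30.6% around the other regions and 1039 of 1142 (91.0%) around those 4-fold higher in pFF. The sums had a median log2 ratio of pFF over pEGC of 5.00 (1 read added to each sum). The same median was -0.42 around the other 17273 regions and 2.46 around the 1254 that were themselves 4-fold higher in pFF.

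The excess of pFF in nearby regions was smaller beyond 20 kb. Regions outside the rule had a median log2 ratio of 3.82 within 1 kb of a fibroblast-restricted region (267 regions), 3.86 at 2 to 5 kb (405) and 3.29 at 10 to 20 kb (719). It was 1.27 at 20 to 50 kb (1415) and -0.05 at 50 to 100 kb (2052). The share that was 4-fold higher in pFF was 43.4% within 1 kb, 47.9% at 2 to 5 kb, 40.6% at 5 to 10 kb, 34.8% at 10 to 20 kb and 15.5% at 50 to 100 kb. Around the other regions it lay between 2.18% and 4.10% at every distance, and the median log2 ratio between -0.77 and -0.46. Other regions 4-fold higher in pFF were not measured apart by distance. A library's 0 reads entered at the floor of 3 reads, so these medians are bounded by depth. A region near several others was counted once in every distance class it fell in. Within 5 kb of a fibroblast-restricted region no region was 4-fold higher in pEGC.

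**Figure D3:**
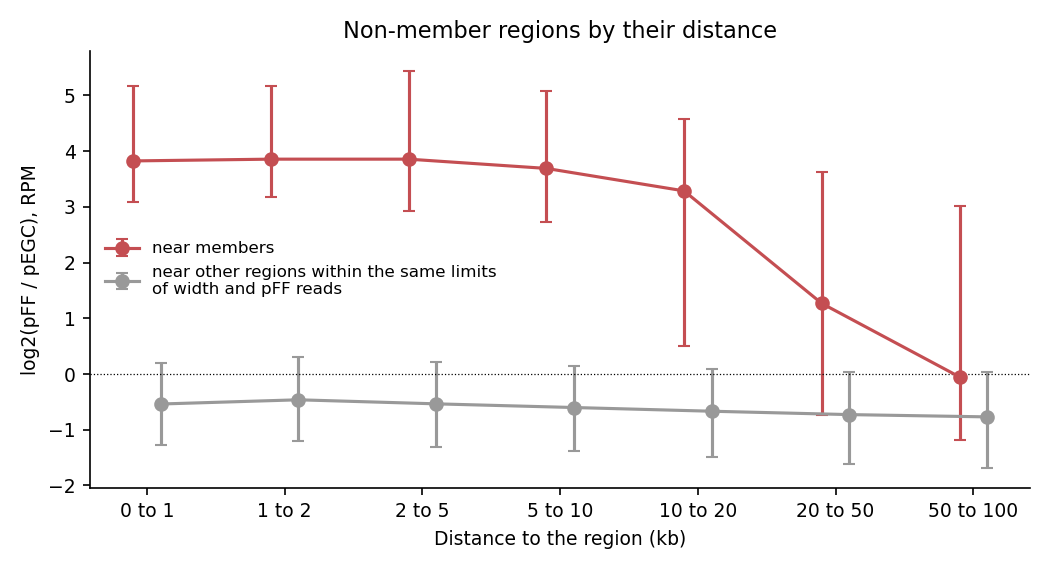
Points are the median log2 ratio of pFF over pEGC (in RPM) of regions outside the rule, by their distance in kb from a fibroblast-restricted region (red) or from another region within the same limits of width and pFF reads (grey); bars span the middle 50% of regions. The red medians are 3.29 or more up to 20 kb and reach -0.05 at 50 to 100 kb, while the grey medians stay between -0.77 and -0.46.

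Reads that belonged to no region were also mostly from pFF nearby. Within 2 kb of a fibroblast-restricted region there were 2815 such pFF reads per Mb and 213 pEGC reads per Mb, a ratio of 13.2 (12.0 to 14.6). Within 10 kb the densities were 2130 and 322 reads per Mb (6.62, 6.36 to 6.90), and at 10 to 50 kb they were 914 and 510 (1.79, 1.76 to 1.83). Around the other regions the pEGC library had more of these reads at each distance, with ratios of 0.562 within 2 kb, 0.534 within 10 kb and 0.452 at 10 to 50 kb. Around other regions 4-fold higher in pFF the ratio was 2.65 within 2 kb, 2.18 within 10 kb and 1.04 at 10 to 50 kb. These are ratios of reads as deposited, without scaling.

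A few fibroblast-restricted regions had neighbours of the opposite kind. The region 4-fold higher in pEGC with the most pEGC reads near one lay on chromosome 4 from 6909584 to 6913756, with 4507 pEGC reads and 1117 pFF reads (4.27-fold, 4.0 to 4.57). It was 9.43 kb from a region of 470 bases with 76 pFF reads and 1 pEGC read. The second was the border of the largest locus, given above, and the fifth, from 128791027 to 128793923 with 343 pEGC reads and 9 pFF reads (40.4-fold, 21.0 to 89.0), lay beyond it. The third, on chromosome 3 from 63631361 to 63635793, had 425 pEGC reads and 23 pFF reads (19.6-fold, 12.9 to 31.2) and was 12.8 kb from a region with 68 pFF reads and 0 pEGC reads. The fourth, on chromosome 13 from 26206584 to 26206720, had 386 pEGC reads and 98 pFF reads (4.17-fold, 3.33 to 5.26) and was 9.65 kb from the end of a locus of 9 fibroblast-restricted regions.

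Regions at a like level in both libraries were seldom near. With at least 50 reads in each library and a ratio within 2-fold, such a region lay within 20 kb of 55 fibroblast-restricted regions (7.87%), against 65.5% of the other regions. The other regions 4-fold higher in pFF were not counted apart here, so the contrast may not be particular to fibroblast-restricted regions. Within 5 kb a region at a like level lay near 10 fibroblast-restricted regions. The closest case, chosen after its values were seen, was chromosome 6 from 43071380 to 43073765, with 138 pFF reads and 1 pEGC read over 2386 bases. Only 245 bases away, a region from 43074011 to 43076271 had 179 pFF reads and 110 pEGC reads (1.54-fold, 1.21 to 1.97). In all, 4 regions within 5 kb of it had like levels in both libraries.

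At the other end, 98 fibroblast-restricted regions had no region within 20 kb. They lay on 18 chromosomes and had 50 to 851 pFF reads (median 84.5), and 37 of them had no pEGC read. Their median width of 1038 bases was above that of all fibroblast-restricted regions, 678. The deepest was the chromosome 9 region given above, of whose 851 pFF reads 4.94% lay on strand F and 9.52% had distinct positions. Others with many reads were the chromosome 4 region at 88065255 with 769, the chromosome 4 region at 40905877 with 545 and the chromosome 17 region at 48432556 with 503.

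The arrangement of reads on the strands differed with width and grouping. A fragment inside 1 stretch of template puts its F read to the left of its R read, whereas in a short exon the other end of the fragment often lies in another exon. The median offset of the mean R start from the mean F start was 4.14 bases in the 161 regions up to 300 bases wide, 17.7 in the 164 over 300 and up to 600, 50.8 in the 197 over 600 and up to 1500 and 93.0 in the 177 wider ones. In other regions it was 8.04, 14.5, 31.1 and 61.4 bases over the same widths. The offset is bounded by the width of a region, and the part of this bound in the rise was not tested. At a given width up to 1500 bases the median offset was larger in fibroblast-restricted regions alone in their locus than in loci of 5 or more: 18.0 against -2.82 bases up to 300, 31.2 against 10.5 in the next class and 80.4 against 28.8 in the one after it. Above 1500 bases the order was the opposite, with 96.1 bases over 98 regions against 123 bases over 27 regions. The middle 50% of regions overlapped in each of these comparisons. Distinct F starts most often had a distinct R start 175 bases downstream, both in all 699 regions and in the 177 over 1500 bases wide. In regions up to 600 bases wide this count was highest at 75 bases, the shortest distance searched.

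**Figure D4:**
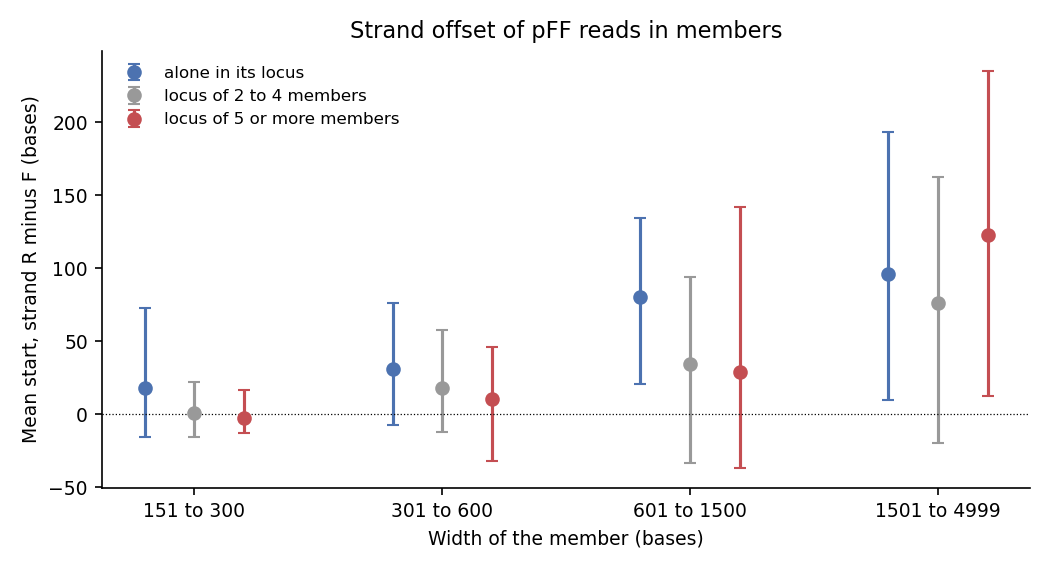
Points are the median offset in bases between the mean starts of pFF reads on strand R and strand F, by width of the fibroblast-restricted region and by the number of such regions in its locus; bars span the middle 50% of regions. Median offsets grow with width, which also bounds them, and up to 1500 bases the regions alone in their locus have the larger medians.

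Repeated positions were more common in narrow than in wide regions, and regions with one-sided strands were narrower than the rest. A median of 56.4% of the pFF reads were left when each position and strand was counted once in a fibroblast-restricted region. It was 54.3% in the other regions and 45.6% in those 4-fold higher in pFF. This share is capped in narrow, deep regions, which offer few positions. It was 41.2% in regions up to 300 bases wide and 68.5% in those over 1500 bases, and it was 62.9% in regions alone in their locus and 44.9% in loci of 5 or more. In 34 regions (4.86%) it was 20% or less, against 4.35% of the other regions. These 34 had a median of 462 reads and 18.2% of all pFF reads in fibroblast-restricted regions, and 12 of them belonged to the largest locus. In 90 regions (12.9%), less than 20% or more than 80% of the pFF reads were on strand F, against 10.6% of the other regions. These 90 were narrower, with a median width of 318 bases against 827 in the rest. At least 50 distinct positions were found in 378 of the 699 regions.

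Some of the few pEGC reads matched pFF reads exactly. Of the 752 pEGC reads in fibroblast-restricted regions, 287 (38.2%, 34.7 to 41.7) had the same start and strand as a pFF read, in 209 regions. With the libraries exchanged, 514 of 1786 pFF reads (28.8%, 26.7 to 30.9) in regions restricted to pEGC matched a pEGC read. The libraries differ in depth, and narrow, deep regions offer few free positions. On chromosome 15 at 118246621, pFF reads held 186 distinct positions and strands in 230 bases. The part of depth and of filled positions in these shares was not tested, and no share for random placement was computed.

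Chromosomes held unequal numbers. Chromosome 1 had 156 of the 699 regions (22.3%), which is 7.93% of its 1968 regions within the limits of width and pFF reads, against 3.89% over all chromosomes. Without the largest locus its share was 6.73%. Chromosomes 11 and 16 had 38 of 450 (8.44%) and 30 of 433 (6.93%). The lowest shares were on chromosome 17, with 6 of 511 (1.17%), on chromosome 3, with 26 of 1240 (2.10%), and on chromosome 12, with 18 of 855 (2.11%). On the X chromosome they were 15 of 590 (2.54%). Counted as loci, which are less dependent on each other, chromosome 11 had 5.11 per 100 regions, chromosomes 15 and 16 had 3.46 each, chromosome 1 had 3.35 and chromosome 17 had 1.17. On chromosome 10, 12 of the 25 fibroblast-restricted regions belonged to a single locus.

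**Figure D5:**
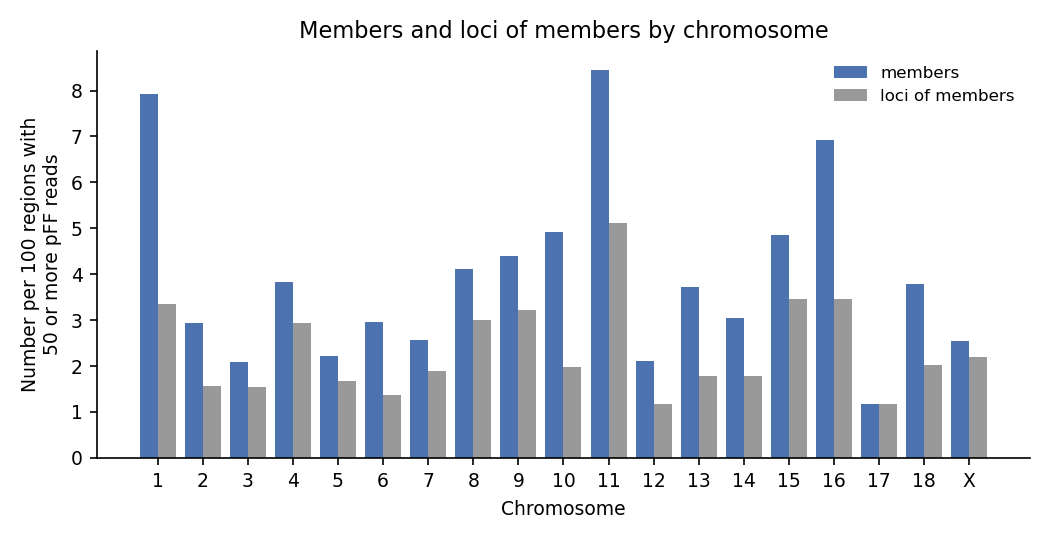
Bars give, for each chromosome, the number of fibroblast-restricted regions (blue) and of loci formed by them (grey) per 100 regions over 150 and under 5000 bases wide with 50 or more pFF reads. Chromosome 11 is highest by both counts, and chromosome 17, with 1.17 by both, is lowest by the blue bars.

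The same rule with the libraries exchanged chose 1298 regions, 5.14% of the 25234 regions within the limits of width and pEGC reads. The share for pFF was 3.89% of 17972. The pEGC library was deeper outside the block, and the counts changed with depth. With the pEGC reads there thinned to the 9942279 of pFF, the rule chose 781 regions restricted to pFF and 887 restricted to pEGC. The 781 overlapped all 699, which was nearly fixed because only pEGC reads were removed. Shares of the regions within the limits were not computed after thinning.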

How the data were processed

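The files the authors deposited hold positions, not counts: chromosome, start, end and strand of every aligned read, all 34 bases long. Per the labels' protocols, RNA went through 2 rounds of poly(A) selection, was fragmented by hydrolysis and copied with random hexamers. The aligner, the genome build and any filters: not given in the sources used here. Reads lay past the last gene of the Sscrofa11.1 gene table on 6 of 19 chromosomes, so that table was not used and no gene was named. Coordinates are those of the files, with the first base counted as 1.

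Regions, RPM, ratios and intervals were computed here with Python 3.11.15, numpy 2.4.6, pandas 2.3.3 and scipy 1.17.1. Where a region had 0 reads in a library, 3 were used in their place. The interval in the 4-fold rule is then not exact. The scripts were tested on simulated reads. The regions, lists and limits were chosen with earlier results of these data known. Named were the 10 deepest regions, the 5 deepest without pEGC reads, the 5 densest, the deepest of each chromosome, the 3 widest and the 3 narrowest, the 5 loci with the most regions and the 5 with the most reads, and the 5 nearby regions higher in pEGC with the most pEGC reads; others are marked.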

Additional observations from a re-analysis of the deposited data

How the results depend on the processing

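The number of fibroblast-restricted regions followed the limits. It was 277 with no pEGC read allowed and 1112 with up to 10, 1160 from 30 pFF reads and 331 from 100, against 699. With each position and strand counted once it was 408, and these overlapped 378 of the 699. Joining starts within 100 or 400 bases gave 634 and 608, of which the overlap with the 699 was 457 and 503. Without limits of width it was 827, with thinned pEGC reads 781, and without one-sided strands 609, the last chosen after seeing the data. Their share of the pFF reads in regions was 0.836%, 1.23% without the chromosome 6 block in the total and 1.48% with each position counted once.

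The count of 348 regions beside one higher in pFF was 250 (35.8%) within 5 kb and 413 (59.1%) within 50 kb. Among the other regions the shares were 5.66% and 13.1%. The count was 351 (50.2%) both with the block left out and by the median of ratios, against 12.1% and 13.0% of the other regions. Without the 5 loci of 10 or more it was 269 of 619 (43.5%). This last setting was also chosen after seeing the data, and the other regions were not counted for it. Loci numbered 405, or 440 and 356 when joined within 10 and 50 kb. Leaving out the block or scaling by the median of ratios raised every log2 ratio by 0.36 or 0.43. Counted once per position, the 32 named regions had log2 ratios from 3.94 to 9.35 in place of 5.00 to 10.71. Of these, 10 left their counting interval. All stayed higher in pFF, which at most 3 pEGC reads and at least 27 distinct pFF positions in each had fixed. The totals were also counted once per position, which raised the ratios. In the X chromosome region, with 1 pEGC read and 63.2% of pFF reads at distinct positions, the log2 ratio went from 8.35 to 8.38. No paired analysis was possible because each culture had 1 library, and for the same reason no replicate could be left out. At this depth, 0 pEGC reads allow a level of up to 0.232 RPM.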

Other observations

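Regions in which reads on strand F were followed by reads on strand R were looked for after the pair on chromosome 5 had been seen. Of the 43 fibroblast-restricted regions with more than 80% of pFF reads on strand F, 4 were followed within 3 kb by a region of at least 50 pFF reads with less than 20% on strand F. Of the 907 other such regions, 84 were (9.30% and 9.26%). Of the 90 one-sided regions, 41.1% lay in loci of 5 or more fibroblast-restricted regions, and 25.9% of the remaining 609 did. Width moved with this: the one-sided regions had a median width of 318 bases and the others 827, and of all fibroblast-restricted regions, 64 of the 161 up to 300 bases wide and 59 of the 164 over 300 and up to 600 lay in such loci. Its part was not tested, and regions of 1 locus are not independent. Of the 34 regions with 20% or fewer distinct positions, 20 were one-sided.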
